A study of Mus musculus with 12 samples.

Results

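The diploid epiblast stem cell (EpiSC) line EpiSC-2 was set against the diploid line EpiSC-1, with the comparison limited to genes on the autosomes. Its members were the 6 arrays that the labels title as diploid EpiSC-2 or diploid EpiSC-1, 3 biological replicates of each, out of 12 arrays in the series. Genes were the autosomal genes paired with a single platform symbol, of which 17403 were on the array and 10693 were bright enough to be tested. The other 6 arrays held 2 haploid lines, EpiSC-2 and EpiSC-1, with 3 replicates each. Haploid cells carry a single chromosome set.

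Both diploid lines carried the strain label B6D2F1, the first-generation hybrid of C57BL/6 and DBA/2 mice, and the haploid lines were labelled 129Sv. All cells were cultured in N2B27, a serum-free medium, with bFGF and Activin A, and their total RNA was extracted with Trizol and hybridised as biotin-labelled cRNA to Affymetrix arrays. No treatment, genotype or embryo age that separates the diploid lines was given in the labels. Each diploid group was a single line, so the replicate spread is the spread within a line, and a difference found here belongs to these 2 lines. In bulk RNA, fewer cells of a type and less RNA per cell cannot be told apart.

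EpiSCs are derived from the epiblast after implantation and are said to be in the primed state of pluripotency. They need Activin/Nodal and FGF signals, express Pou5f1, Sox2, Nanog, Fgf5 and Otx2, and lack markers of the naive state of embryonic stem cells such as Zfp42 (Rex1). Single EpiSC lines are known to vary in how much they express genes of the primitive streak, endoderm and neuroectoderm.

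Both diploid lines carried the markers of their label. Pou5f1, the central pluripotency factor (Oct4), gave signals of 8542, 8845 and 9250 in EpiSC-2 against 9710, 9498 and 9578 in EpiSC-1. Zfp42 stayed at 11.8 to 16.3 in EpiSC-2 and at 15.4 to 23.8 in EpiSC-1, well under 62.6, the signal below which genes were not tested. Genes of the sex chromosomes differed: Xist, the RNA that coats an inactive X chromosome, gave 10036 to 12642 in EpiSC-2 and 50.1 to 61.9 in EpiSC-1, and the Y-linked Eif2s3y gave 6.98 to 18 in EpiSC-2 and 2841 to 3119 in EpiSC-1. Kdm5d, another Y-linked gene, was under the filter in all 6 arrays, at up to 42.6 in EpiSC-2 and up to 50.5 in EpiSC-1. Line identity and sex chromosome content therefore cannot be told apart in any autosomal result below.

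Signals were on the MAS5 scale, and every array had the same trimmed mean. Array medians lay at 63.8 to 66.8 in EpiSC-2 and at 63.6 to 65.8 in EpiSC-1. Over the tested autosomal genes, log2 signals correlated at 0.989 to 0.991 within each diploid line and at 0.952 to 0.954 between them, and the median replicate SD was 0.0982 in EpiSC-2 and 0.0917 in EpiSC-1 (log2). The ratio of 3′ to 5′ control probe sets was 1.57 to 1.68 in EpiSC-2 and 1.46 to 1.53 in EpiSC-1 for actin, and 0.913 to 0.938 in EpiSC-2 and 0.821 to 0.850 in EpiSC-1 for Gapdh. Neither ratio overlapped between the lines, and its part in the differences below was not tested.

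Most autosomal genes differed a little between the lines and a minority differed much. In a limma fit of the 4 group means, 5933 of 10693 genes (55.5%) had a Benjamini-Hochberg adjusted p under 0.05, the call used throughout. Of these, 2786 (26.1%) were higher and 3147 (29.4%) were lower in EpiSC-2. The median size of a difference was 0.28 on the log2 scale and its 90th percentile was 0.84. Called differences of at least 2-fold numbered 710 (6.64%), with 463 higher (4.33%) and 247 lower (2.31%) in EpiSC-2, and 93 genes were at least 4-fold higher against 34 at least 4-fold lower. The 3 arrays of EpiSC-2 did not overlap those of EpiSC-1 for 6548 genes (61.2%). The genes named below were mostly drawn from called genes that met this condition. Where non-overlap is stated for them, it was fixed by that choice and adds no support. The plot of the levels in both lines shows the genes called at least 2-fold as clouds on either side of the diagonal. Since the signal filter used the mean of all 12 arrays, 32 of the 710 genes were under it in both diploid lines and 145 in 1 of them, and folds against such low signals have no firm size.

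**Figure D1:**
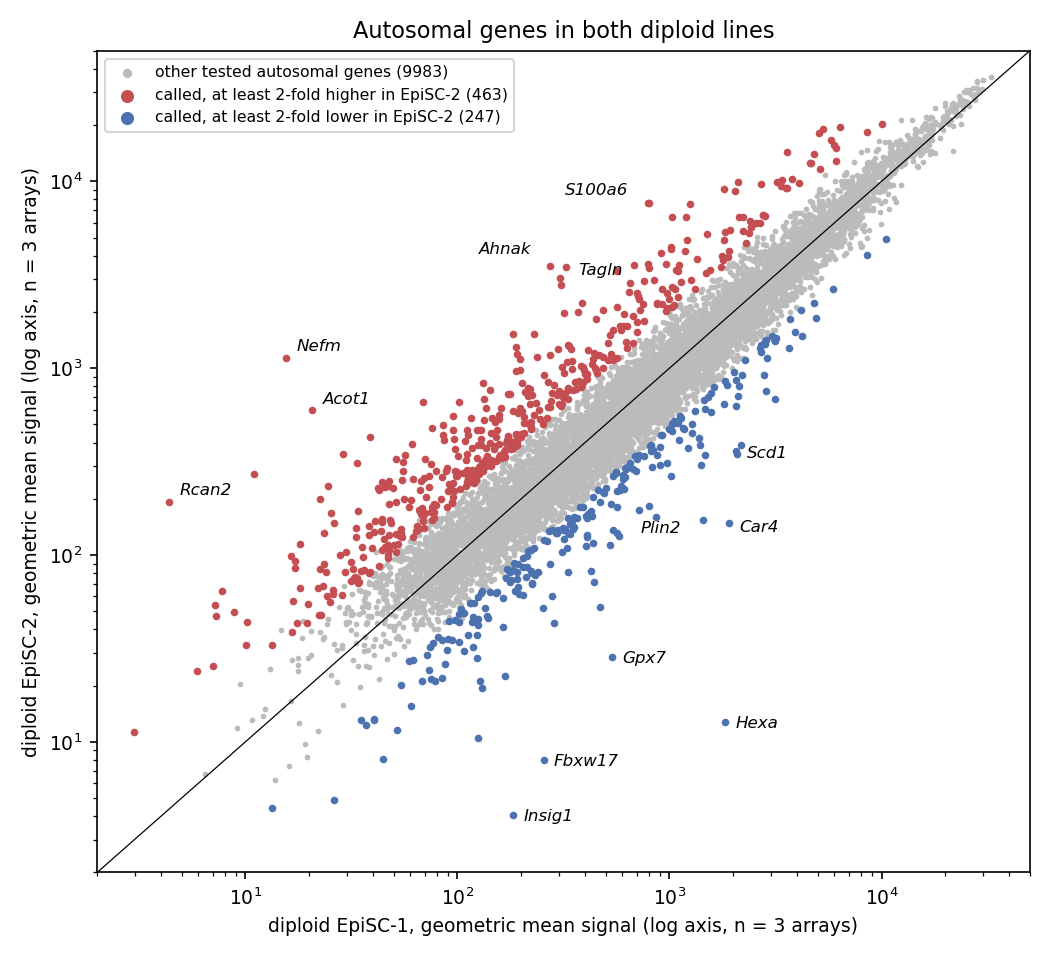
Geometric mean signal of each tested autosomal gene in diploid EpiSC-2 (vertical log axis) and diploid EpiSC-1 (horizontal log axis), 3 arrays each; the diagonal marks equal levels. The 463 genes called at least 2-fold higher lie above it and the 247 called at least 2-fold lower lie under it, with Nefm and Hexa farthest away.

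Among the genes with the largest increases in EpiSC-2 were Nefm, Ahnak, Tagln, S100a6, Anxa3 and Phlda1. Nefm, a neurofilament subunit of neurons, gave 1191, 1085 and 1143 in EpiSC-2 and 16.5, 9.43 and 23.9 in EpiSC-1, a log2 difference of 6.20 ± 0.23 (SE, n = 3 each, adjusted p = 1.6e-11). It was bright in every EpiSC-2 array and under the filter in every EpiSC-1 array, so its fold is given as at least 18.2, against the filter. Ahnak, a very large scaffold protein at the cell membrane, gave 3279, 3572 and 3676 in EpiSC-2 and 241, 343 and 247 in EpiSC-1 (3.68 ± 0.10, adjusted p = 5.01e-13). Its second probe set above the filter was also higher, by 2.63, and the mean of all its probe sets by 1.95. Tagln, the actin-binding protein transgelin of smooth muscle and fibroblasts, gave 3370, 3593 and 3544 in EpiSC-2 and 330, 269 and 381 in EpiSC-1 (3.43 ± 0.09). For Ahnak and Tagln both lines were above the filter and the arrays were far apart.

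S100a6, a calcium-binding protein, gave 7546, 8396 and 7108 in EpiSC-2 and 849, 793 and 751 in EpiSC-1 (3.27 ± 0.06, adjusted p = 1.64e-14). Anxa3, a calcium-dependent phospholipid-binding annexin, gave 7666, 7416 and 7900 in EpiSC-2 and 736, 785 and 858 in EpiSC-1 (3.28 ± 0.05). Phlda1, a pleckstrin-homology protein induced by growth factor signals, gave 2794, 2774 and 2799 in EpiSC-2 and 295, 322 and 303 in EpiSC-1 (3.19 ± 0.05). In these 3 genes the replicates of a line differed by far less than the lines did. Crlf2, a chain of the thymic stromal lymphopoietin receptor, gave 2922, 3238 and 3013 in EpiSC-2 and 307, 272 and 335 in EpiSC-1 (3.33 ± 0.08). Tgm1, the transglutaminase that crosslinks the cornified envelope of skin, gave 622, 653 and 716 in EpiSC-2 and 64.2, 84.0 and 60.0 in EpiSC-1 (3.27 ± 0.19). Synpo2l, an actin-associated protein of striated muscle, differed by 3.05 ± 0.11, and its other probe set by 2.29.

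Rcan2, a regulator of the phosphatase calcineurin, gave 193, 171 and 218 in EpiSC-2 and 2.29, 1.78 and 20.4 in EpiSC-1. Its fitted difference of 5.47 ± 0.64 was 2.52 with 32 added to each signal, and against the filter it was at least 3.08-fold higher. Hspa1b, an inducible HSP70 chaperone, gave 263, 323 and 235 in EpiSC-2 and 2.10, 28.5 and 22.1 in EpiSC-1. Its 2 other probe sets above the filter were higher by 1.99 and 3.08. Hspa1b has a near-identical neighbour, Hspa1a, and Acot1, a cytosolic acyl-CoA thioesterase, has close paralogues, so which copy these probe sets read is uncertain.

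Among the genes with the largest decreases in EpiSC-2 were Hexa, Insig1, Car4 and Plin2. Hexa, the alpha subunit of the lysosomal enzyme beta-hexosaminidase, gave 20.2, 3.84 and 27.0 in EpiSC-2 and 1739, 1784 and 1958 in EpiSC-1 (-7.16 ± 0.47, adjusted p = 1.14e-08). All EpiSC-2 arrays were under the filter and all EpiSC-1 arrays were bright, and set against the filter its level in EpiSC-1 was at least 29.2-fold higher. Gusb, the lysosomal beta-glucuronidase, gave 41.7, 55.2 and 35.6 in EpiSC-2 and 288, 268 and 306 in EpiSC-1 (-2.72 ± 0.13). Ctsf, a lysosomal cysteine protease, gave 14.8, 7.36 and 10.7 in EpiSC-2 and 138, 119 and 117 in EpiSC-1 (-3.56 ± 0.28). The groups did not overlap for any of these 3 enzymes, though Ctsf in EpiSC-1 was only 1.99 times the filter.

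Plin2, the coat protein of lipid droplets, gave 171, 135 and 158 in EpiSC-2 and 1484, 1428 and 1395 in EpiSC-1 (-3.22 ± 0.07, adjusted p = 8.67e-14). Lpl, the lipoprotein lipase, gave 304, 381 and 360 in EpiSC-2 and 2175, 1945 and 2099 in EpiSC-1 (-2.58 ± 0.10). Scd1, the stearoyl-CoA desaturase that makes monounsaturated fatty acids, gave 367, 379 and 333 in EpiSC-2 and 2035, 2086 and 2074 in EpiSC-1 (-2.52 ± 0.05). All 3 were measured above the filter in both lines and were lower in every EpiSC-2 array. The second probe sets of Lpl and Scd1 were lower by -2.42 and -1.79. Ugt8a, which makes galactosylceramide for myelin, was lower by -2.48 ± 0.08. Insig1 is an endoplasmic reticulum protein that holds back transcription of sterol synthesis genes when sterols are plentiful. It gave 0.727, 7.18 and 12.8 in EpiSC-2 and 183, 205 and 164 in EpiSC-1. Its difference of -5.50 ± 0.68 rests on near-zero signals, was -2.48 with 32 added to each signal, and against the filter EpiSC-1 was at least 2.93-fold higher.

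Car4, a membrane-anchored carbonic anhydrase, gave 120, 170 and 157 in EpiSC-2 and 1917, 1858 and 1924 in EpiSC-1 (-3.69 ± 0.10), and its second probe set was lower by -3.42. Nkx1-2, a homeobox factor of the caudal epiblast, gave 66.0, 63.4 and 88.2 in EpiSC-2 and 437, 435 and 445 in EpiSC-1 (-2.61 ± 0.11). In both genes every EpiSC-2 array was dimmer than every EpiSC-1 array by several fold. Gpx7, a peroxidase of the endoplasmic reticulum, gave 66.4, 7.26 and 47.8 in EpiSC-2 and 541, 509 and 558 in EpiSC-1 (-4.23 ± 0.54). Fbxw17, an F-box protein, was lower by -4.99 ± 0.45, Prxl2a, a peroxiredoxin-like protein, by -2.44 ± 0.08 (-1.18 averaged over its probe sets), and Pcbd1, a pterin dehydratase, by -2.37 ± 0.11. Wdr31, a WD-repeat protein, was lower by -3.16 ± 0.19. Apobec3, a cytidine deaminase that restricts retroviruses, was lower by -2.91 ± 0.46, and Slit3, a secreted ligand of Robo receptors, by -2.74 ± 0.66, both from low signals.

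**Figure D2:**
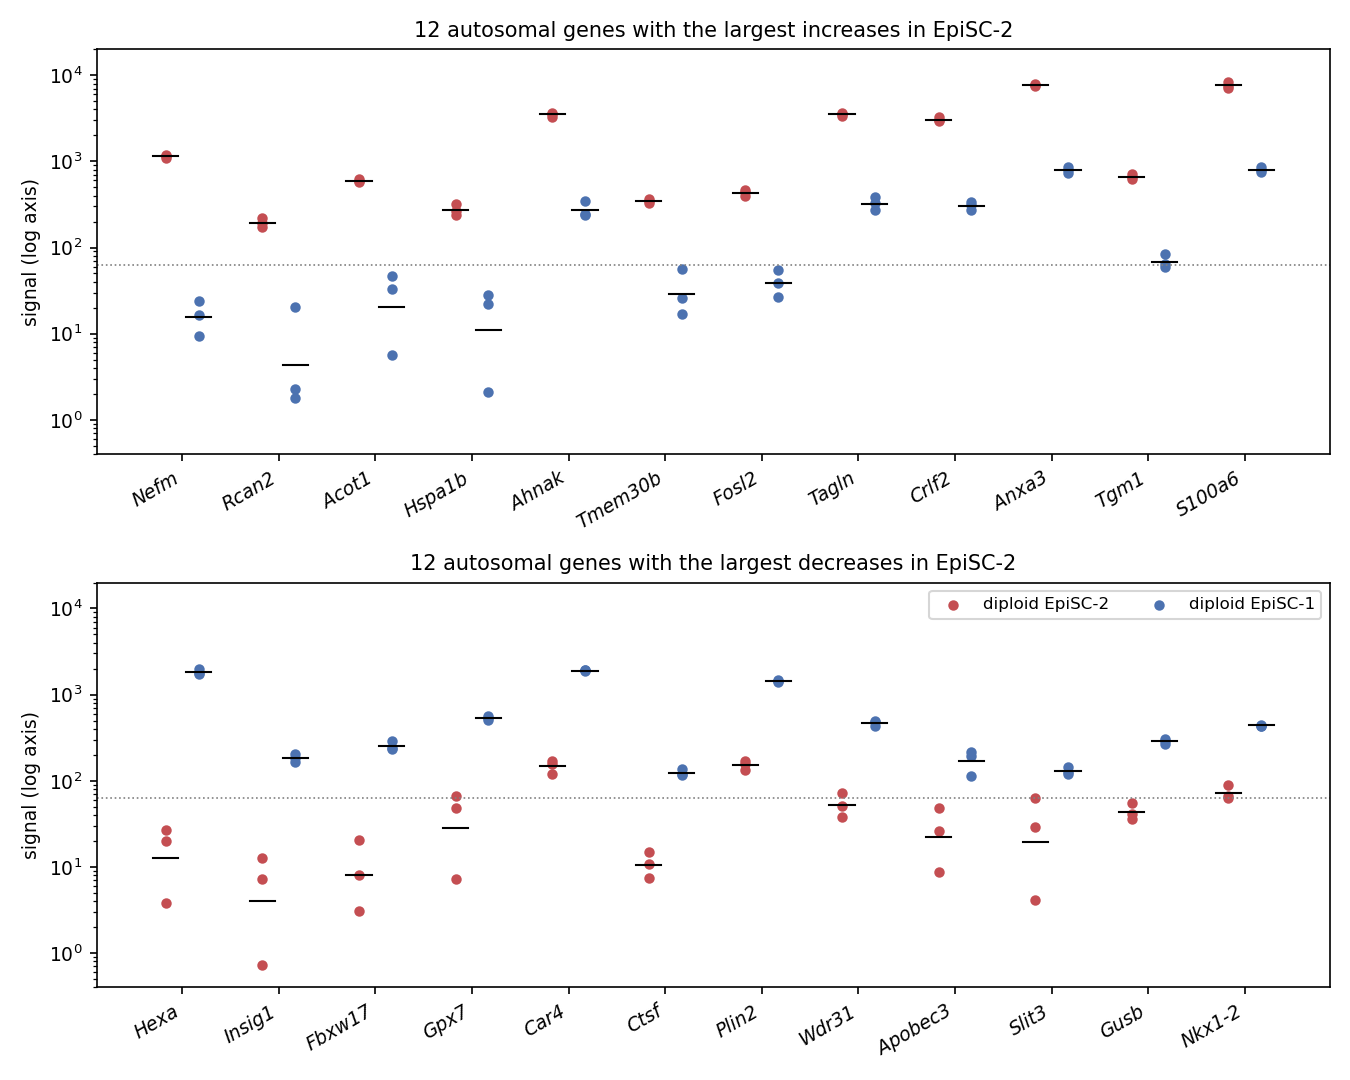
Signal (log axis) of each array for the 12 autosomal genes with the largest increases (top) and decreases (bottom) in diploid EpiSC-2; red points are the 3 EpiSC-2 arrays, blue points the 3 EpiSC-1 arrays, bars the geometric means and the dotted line the signal filter of 62.6. The genes were chosen among those whose arrays do not overlap, and many have 1 line under the filter.

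Genes on in 1 line and off in the other were rare. On was defined as all 3 arrays at or above 4 times the filter (250.3) and off as all 3 under the filter. By this rule 6 of 17403 autosomal genes (0.0345%) were on in EpiSC-2 and off in EpiSC-1, and 2 (0.0115%) were off in EpiSC-2 and on in EpiSC-1. The 6 were Nefm, Acot1, Tmem30b, Fosl2, Morrbid and Zfpm2. Tmem30b, a subunit of lipid flippases, gave 349, 331 and 366 in EpiSC-2 and 55.9, 16.8 and 25.8 in EpiSC-1. Fosl2, a subunit of the AP-1 transcription factor, gave 393, 436 and 462 in EpiSC-2 and 39.0, 26.8 and 55.6 in EpiSC-1. These levels were 5.57-fold and 6.86-fold above the filter in EpiSC-2.

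Other probe sets bore on these calls unevenly. Nefm, Acot1 and Tmem30b had no other probe set. The second probe set of Zfpm2, a cofactor of GATA factors, was higher in EpiSC-2 by 1.02 (adjusted p = 0.00829 over probe sets), and that of Morrbid, a long non-coding RNA, by 1.53 (adjusted p = 0.0122). The second probe set of Fosl2 gave 136, 119 and 114 in EpiSC-2 and 77.6, 109 and 24.5 in EpiSC-1 and was not called (1.05, adjusted p = 0.0827). It was above the filter in 2 EpiSC-1 arrays, so the off state of Fosl2 in EpiSC-1 rested on the brighter probe set alone. Hexa had a single probe set, and the second probe set of Gusb was lower by -2.41 with all 6 arrays under the filter. All 8 genes were above the filter in all 6 haploid arrays. Among the 710 genes called at least 2-fold, 261 had another probe set above the filter, which moved the same way and was called for 210 genes, while 3 genes had another probe set called the opposite way.

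The core pluripotency genes moved in both directions. Of 15 tested, 5 were called higher and 6 lower in EpiSC-2, against 26.1% higher and 29.4% lower of all tested autosomal genes, with a median difference of -0.02 against -0.01. Nanog, the homeobox factor that stabilises pluripotency, gave 2637, 2725 and 2624 in EpiSC-2 and 6036, 5691 and 5922 in EpiSC-1 (-1.14 ± 0.05, adjusted p = 1e-10). Lin28a, an RNA-binding protein that blocks let-7 maturation, gave 1842, 1806 and 1935 in EpiSC-2 and 4725, 5376 and 4677 in EpiSC-1 (-1.40 ± 0.06), with no overlap for either gene. Another probe set of Lin28a differed by 0.49 without a call, and the difference averaged over its probe sets was -0.46. Dppa4, a chromatin-associated protein of pluripotent cells, gave 846, 841 and 825 in EpiSC-2 and 193, 260 and 161 in EpiSC-1 (2.06 ± 0.17), and its partner Dppa2 was higher by 0.91 ± 0.08. Sox2 and Tdgf1, the Nodal co-receptor Cripto, were higher by 0.22 and 0.33. The Pou5f1 difference of -0.11 ± 0.06 was not called (adjusted p = 0.134), but was -0.31 and called under quantile normalization.

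Of 9 tested naive pluripotency genes, 6 were called higher and 1 lower in EpiSC-2, with a median of 0.74. This was 77.8% called, against 55.5% of all tested genes. Klf5, a Krüppel-like factor of the naive network, gave 1276, 1266 and 1381 in EpiSC-2 and 382, 299 and 335 in EpiSC-1 (1.96 ± 0.09). Tfcp2l1, a factor downstream of LIF signalling, gave 279, 212 and 220 in EpiSC-2 and 67.7, 59.0 and 26.0 in EpiSC-1 (2.32 ± 0.28). Klf4 gave 180, 162 and 169 in EpiSC-2 and 63.7, 74.7 and 88.9 in EpiSC-1 (1.18 ± 0.17), and Socs3, an inhibitor and target of LIF/STAT3 signalling, was higher by 0.84 ± 0.11. Other probe sets of Socs3 differed by 0.31 and, without a call, by -0.10. The arrays of the lines were apart for these genes, but 7 of the 17 autosomal naive genes on the array, among them Zfp42, Tbx3, Dppa3 and Prdm14, were under the filter in all 6 arrays. Esrrb was not tested and gave 90.5, 77.6 and 62.3 in EpiSC-2 and 48.3, 74.8 and 41.9 in EpiSC-1. Nr5a2, a nuclear receptor that was also not tested, gave 9.35, 40.3 and 17.3 in EpiSC-2 and 198, 215 and 150 in EpiSC-1.

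Primed epiblast genes were more often lower: 5 of 23 were called higher and 12 lower, with a median of -0.25. This was 73.9% called, against 55.5% of all tested genes. Otx2, the anterior epiblast homeobox factor, gave 2048, 2076 and 2275 in EpiSC-2 and 3971, 3863 and 4052 in EpiSC-1 (-0.89 ± 0.07). Fgf5, the growth factor that marks the epiblast after implantation, gave 2460, 2437 and 2098 in EpiSC-2 and 3480, 3530 and 3852 in EpiSC-1 (-0.64 ± 0.17, adjusted p = 0.00479). Dnmt3a and Dnmt3b, the de novo DNA methyltransferases, were lower by -1.09 ± 0.07 and -0.59 ± 0.06. None of these 4 genes overlapped between the lines, as was so for 61.2% of all tested autosomal genes. Car2, a cytosolic carbonic anhydrase, was the largest exception with 19612, 18584 and 20695 in EpiSC-2 against 6538, 6035 and 6449 in EpiSC-1 (1.63 ± 0.04). Pou3f1 (Oct6), a POU factor of the primed epiblast, was higher by 0.94, but another of its probe sets was called lower by -0.45.

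Endoderm genes were the list with the lowest median, -0.63: of 18 tested, 3 were called higher and 12 lower in EpiSC-2. This was 83.3% called, against 55.5% of all tested genes. Foxa2, a forkhead factor of the definitive endoderm and node, gave 261, 276 and 260 in EpiSC-2 and 577, 459 and 603 in EpiSC-1 (-1.03 ± 0.18). Sox17, the endoderm HMG-box factor, gave 403, 358 and 351 in EpiSC-2 and 596, 654 and 623 in EpiSC-1 (-0.75 ± 0.10). Gata6, a GATA factor of primitive and definitive endoderm, gave 134, 163 and 157 in EpiSC-2 and 273, 305 and 308 in EpiSC-1 (-0.96 ± 0.12). All 3 were lower in every EpiSC-2 array. Cer1, a secreted Nodal and BMP antagonist, was lower by -0.79 ± 0.18, Hhex, a homeobox factor of anterior endoderm, by -0.70 ± 0.12, and Spink1, a protease inhibitor of gut endoderm, by -2.13 ± 0.64. The exceptions were the basement membrane collagen chains Col4a1 and Col4a2, higher by 1.09 and 1.13, and Apoe, the lipid carrier, higher by 0.63. The tested members summed to signals of 9749 to 10345 in EpiSC-2 and 11997 to 12289 in EpiSC-1. Markers of differentiated endoderm, Afp, Ttr, Apoa1 and Hnf4a, were under the filter in all 6 arrays.

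Of 13 tested genes of the primitive streak and mesoderm, 3 were called higher and 4 lower (53.8% called, near the 55.5% of all tested genes). Besides Nkx1-2, Fgf8, the streak FGF ligand, gave 490, 469 and 466 in EpiSC-2 and 1020, 968 and 1009 in EpiSC-1 (-1.07 ± 0.06). Mixl1, a homeobox factor of the streak, gave 143, 139 and 147 in EpiSC-2 and 265, 292 and 293 in EpiSC-1 (-0.99 ± 0.21). Both were lower in every EpiSC-2 array. Lhx1, a LIM homeobox factor of the anterior streak, gave 484, 413 and 459 in EpiSC-2 and 1240, 1272 and 1322 in EpiSC-1, with no overlap. Its difference of -1.50 ± 0.53 was called (adjusted p = 0.0261), but leaving out any single diploid array ended the call (-1.55 to -1.44, highest adjusted p = 0.0652). The haploid arrays entered the shared estimate of the error behind this SE. Eomes, a T-box factor of streak and endoderm, differed by -0.01.

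Among 17 tested neuroectoderm genes, 7 were called higher and 3 lower (58.8% called, near the 55.5% of all tested genes). The median of 0.15 turned to -0.04 with the mean of all probe sets of a gene. Nes, the neural progenitor intermediate filament nestin, gave 1655, 1201 and 1090 in EpiSC-2 and 731, 840 and 654 in EpiSC-1 (0.81 ± 0.13). Its 2 other probe sets above the filter differed by 0.12 and 0.28 without a call. Npy, the neuropeptide Y, gave 6149, 6761 and 7008 in EpiSC-2 and 2903, 2534 and 2829 in EpiSC-1 (1.27 ± 0.40). By these probe sets Nes and Npy were higher in every EpiSC-2 array. The 3 genes called lower were Hesx1, Msi1 and Irx3, by -1.13, -0.64 and -0.53. Hesx1 was under the filter in every EpiSC-2 array. Olig1, a bHLH factor of oligodendrocyte precursors, gave 1756, 1597 and 1777 in EpiSC-2 and 2181, 2214 and 2223 in EpiSC-1. Its arrays did not overlap, but the fit over 12 arrays did not call it (-0.37 ± 0.49, adjusted p = 0.545), while a fit of the 6 diploid arrays did. Its haploid means of 4.53 in EpiSC-2 and 34.7 in EpiSC-1 were near background, and the haploid arrays entered the shared estimate of the error.

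Many epithelial genes were higher in EpiSC-2. Of 24 tested, 14 were called higher and 4 lower in EpiSC-2, with 7 at least 2-fold higher and a median of 0.30. Krt8, a keratin of simple epithelia, gave 14959, 13603 and 14381 in EpiSC-2 and 3682, 3467 and 3656 in EpiSC-1 (1.99 ± 0.04, adjusted p = 4.74e-14), and its partner Krt18 gave 12495, 12418 and 12627 in EpiSC-2 and 4446, 4580 and 4746 in EpiSC-1 (1.45 ± 0.04). Krt19 was higher by 2.12 ± 0.07. These keratins were several-fold brighter in every EpiSC-2 array. Dsp, the desmosome linker desmoplakin, gave 3509, 3402 and 3445 in EpiSC-2 and 806, 804 and 801 in EpiSC-1 (2.10 ± 0.05). Cldn4, a tight junction claudin, gave 1971, 2033 and 1901 in EpiSC-2 and 331, 316 and 313 in EpiSC-1 (2.62 ± 0.08). Not all junction genes moved this way: Cldn7, another claudin, gave 2385, 2060 and 2245 in EpiSC-2 and 5007, 4324 and 5177 in EpiSC-1 (-1.12 ± 0.10). Cdh1, the adhesion molecule E-cadherin, was higher by 0.49 ± 0.06. The adhesion molecule Epcam was higher by 0.16 ± 0.04, but differed by -0.05 without a call (adjusted p = 0.253) under quantile normalization.

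The 3 keratins also made up most of the calls in the trophoblast list, in which 4 of 8 tested genes were called higher by limma. At the adjusted p under 0.05 that defines a call 0 were lower, as at an unadjusted p under 0.05. The share called was under the 55.5% of all tested genes, of which 26.1% were called higher and 29.4% lower. The fourth gene called higher was Tfap2c, an AP-2 factor of trophoblast and germ cells, with 182, 172 and 163 in EpiSC-2 and 47.0, 26.2 and 31.6 in EpiSC-1 (2.34 ± 0.23). The defining trophoblast factors Elf5, Gata3 and Tead4 were among 6 of 15 autosomal members under the filter in all 6 arrays, and Cdx2 gave 3.49 to 30.6 in EpiSC-2 and 11.8 to 25.3 in EpiSC-1. The tested members summed to signals of 31304 to 32778 in EpiSC-2 and 9870 to 10309 in EpiSC-1. Most of the sum in both lines came from the 3 keratins, so it mainly reads their level. The part of trophoblast cells in the keratin differences was not tested.

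Many mesenchymal genes were also higher in EpiSC-2. Of 23 tested, 15 were called higher, 11 of them at least 2-fold, and 2 lower, with a median of 0.91. This was 73.9% called, against 55.5% of all tested genes. Vim, the intermediate filament vimentin, gave 19064, 20183 and 18288 in EpiSC-2 and 4933, 5645 and 5263 in EpiSC-1 (1.86 ± 0.05), and its other probe sets rose by 1.88 and 2.0. Ccn2, a matrix protein and target of YAP signalling, gave 7832, 7300 and 7527 in EpiSC-2 and 1287, 1236 and 1224 in EpiSC-1 (2.60 ± 0.04, adjusted p = 1.74e-15). Lgals1, the lectin galectin-1, gave 16697, 16117 and 17117 in EpiSC-2 and 5735, 5458 and 6181 in EpiSC-1 (1.52 ± 0.05). The lines did not overlap in any of these 3 genes, as was so for 61.2% of all tested autosomal genes. Sparc, a collagen-binding matrix protein, gave 9410, 9331 and 10164 in EpiSC-2 and 2470, 2902 and 2782 in EpiSC-1 (1.83 ± 0.06), and Fn1, fibronectin, was higher by 1.18 ± 0.06. One of the other probe sets of Sparc differed by -0.10 without a call. Several EMT factors were dim. Snai2 gave 74.4 to 95.3 in EpiSC-2 and 45.5 to 52.1 in EpiSC-1 (0.84 ± 0.10), and Twist1 gave 46.8 to 74.0 in EpiSC-2 and 14.5 to 42.3 in EpiSC-1 (1.10 ± 0.31). Zeb1 was called higher by 0.52 and Zeb2 lower by -0.77.

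The list of fibroblast feeder markers moved with the mesenchymal genes, with which it shares members. Of 23 tested markers, 12 were called at least 2-fold higher and 3 were called lower (65.2% called). Of all tested autosomal genes, 4.33% were called at least 2-fold higher and 29.4% lower (55.5% called). The signals of the 23 summed to 38184 to 39581 in EpiSC-2 and 12324 to 13123 in EpiSC-1. Most of the sum in both lines came from Vim, Sparc and Tagln. Collagens that mark fibroblasts varied in level. Col1a2, a chain of type I collagen, gave 444, 396 and 450 in EpiSC-2 and 213, 165 and 224 in EpiSC-1 (1.11 ± 0.09), and its second probe set was higher by 1.24. Every EpiSC-2 array was above every EpiSC-1 array, and all were above the filter. Col1a1 and Col3a1 were dimmer. Col1a1 gave 75.9, 134 and 109 in EpiSC-2 and 23.9, 34.5 and 32.2 in EpiSC-1 (1.79 ± 0.22), and Col3a1 gave 123, 152 and 116 in EpiSC-2 and 60.5, 43.6 and 51.3 in EpiSC-1 (1.33 ± 0.12), with another probe set of Col3a1 at -0.18 without a call. Both were higher in every EpiSC-2 array. Col5a1 was brighter, with 1300, 1045 and 1126 in EpiSC-2 and 284, 260 and 180 in EpiSC-1 (2.28 ± 0.13). Fap was under the filter in all 6 arrays, Lum reached 62.8 in EpiSC-2 and 39.8 in EpiSC-1, and Thy1, a surface marker of fibroblasts, was lower by -0.90 ± 0.18. The proteoglycan Dcn gave 18.3, 46.2 and 1.80 in EpiSC-2 and 76.8, 70.0 and 26.0 in EpiSC-1, and its call was lost without EpiSC-2 replicate 3 (-0.83 in place of -2.17). The labels mention no feeder cells, and the part of such cells in the mesenchymal differences was not tested.

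**Figure D3:**
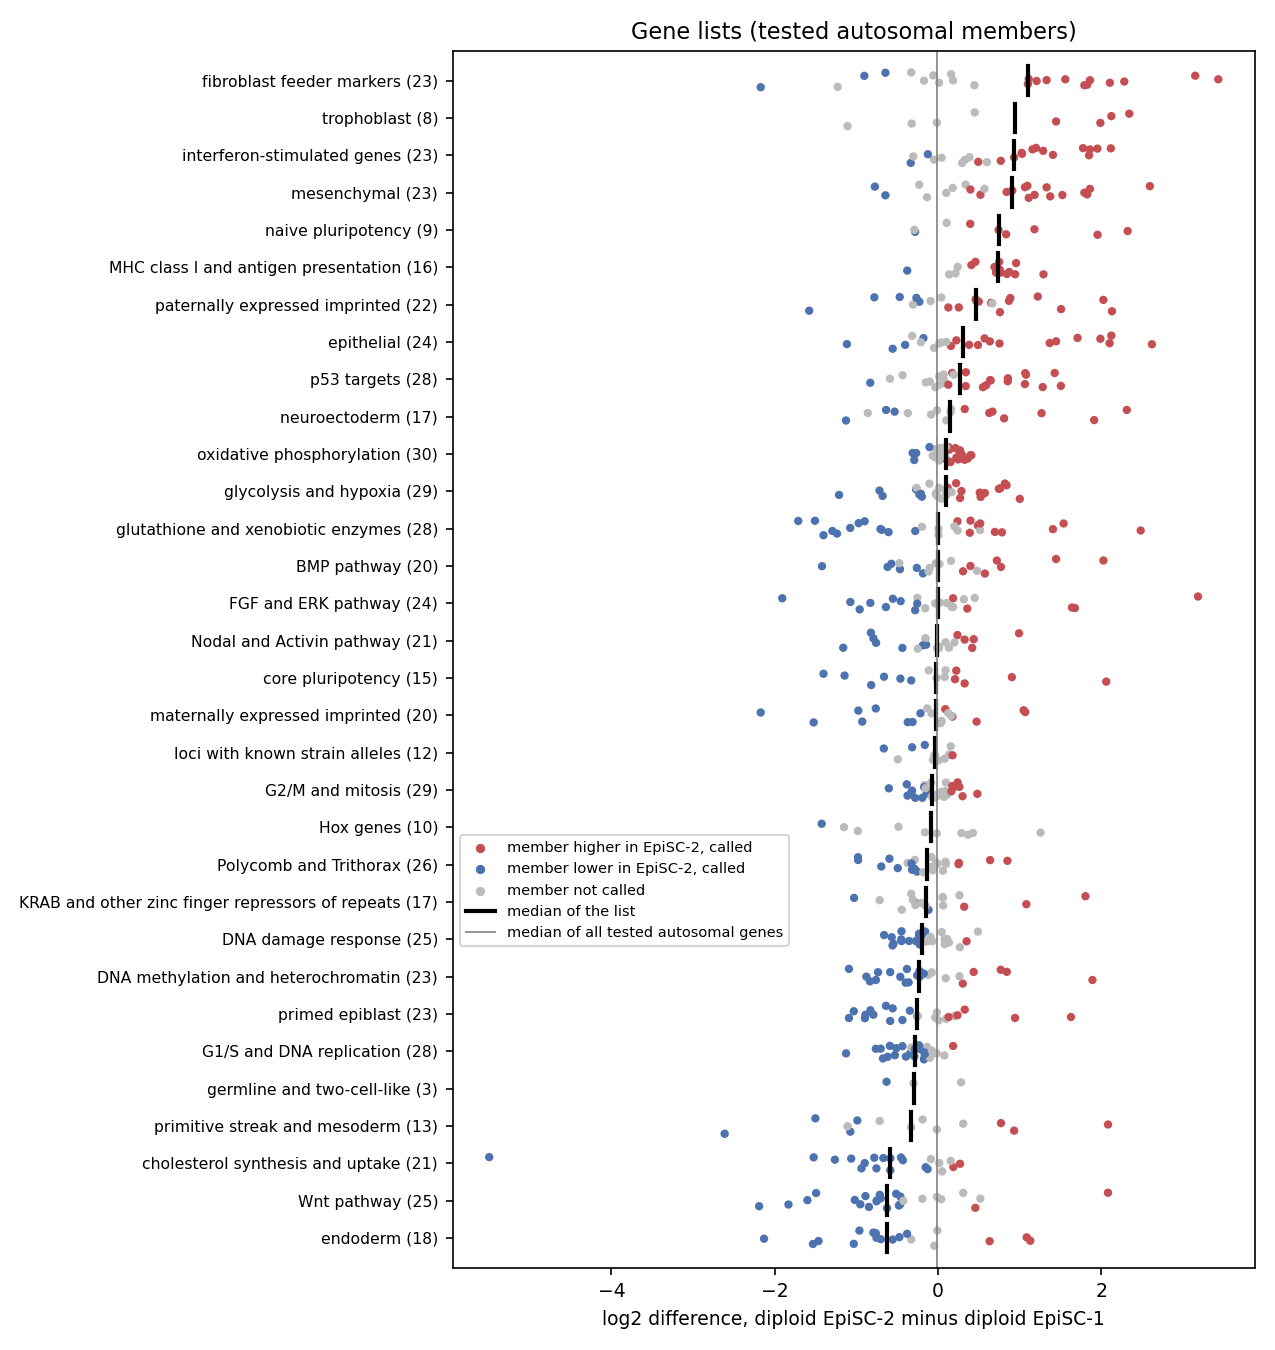
Log2 difference (diploid EpiSC-2 minus diploid EpiSC-1) of every tested autosomal member of the 32 gene lists, with the number of members in brackets; bars are list medians and the grey line is the median of all tested autosomal genes, -0.01. The feeder list has the highest median, 1.10, and the endoderm list the lowest, -0.63, and members of most lists lie on both sides of 0.

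Interferon-stimulated genes, which carry the antiviral state, were higher in EpiSC-2. Of 23 tested, 14 were called higher, 11 of them at least 2-fold, and 2 lower, with a median of 0.93. This was 69.6% called, against 55.5% of all tested genes. Gbp2, an interferon-induced GTPase, gave 8703, 9040 and 8888 in EpiSC-2 and 2060, 2056 and 2019 in EpiSC-1 (2.12 ± 0.04, adjusted p = 2.65e-14), and its neighbour Gbp3 gave 756, 776 and 677 in EpiSC-2 and 205, 242 and 198 in EpiSC-1 (1.78 ± 0.11). Ifitm3, a membrane protein that blocks virus entry, gave 2933, 2969 and 2930 in EpiSC-2 and 721, 794 and 768 in EpiSC-1 (1.95 ± 0.05). All EpiSC-2 arrays lay more than 2-fold above all EpiSC-1 arrays for these genes. Bst2, the tetherin that retains budding viruses, gave 4474, 4492 and 3852 in EpiSC-2 and 1834, 1851 and 2049 in EpiSC-1 (1.16 ± 0.07). Rsad2, the antiviral enzyme viperin, was higher by 1.85 ± 0.28, and Xaf1, an apoptosis regulator, by 1.86 ± 0.08. Ifit1, Ifit2, Ifit3 and Irf9 were not called, and Ddx58, the RNA sensor RIG-I, was called lower by -0.33.

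The genes of MHC class I antigen presentation were also higher, by smaller amounts. Of 16 tested, 12 were called higher and 1 lower (81.25% called, against 55.5% of all tested genes). The median was 0.73, with 1 gene past 2-fold. That gene was Tapbp, the tapasin that loads peptides onto class I molecules, with 5320, 5240 and 5744 in EpiSC-2 and 2117, 2187 and 2351 in EpiSC-1 (1.29 ± 0.05). Another probe set of Tapbp above the filter differed by 0.31 without a call. B2m, the light chain of class I molecules, gave 5027, 5025 and 5082 in EpiSC-2 and 2437, 2689 and 2673 in EpiSC-1 (0.96 ± 0.07), and the heavy chain H2-K1 was higher by 0.77 ± 0.05. The peptide transporter subunit Tap1 was higher by 0.87 ± 0.16, and the immunoproteasome subunit Psmb8 by 0.95 ± 0.08. No array of EpiSC-2 overlapped EpiSC-1 in any of these 5 genes, as was so for 61.2% of all tested autosomal genes. The H2 genes are close copies, so which copy a probe set reads is uncertain.

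The interferon-stimulated response element (ISRE) is the DNA motif that interferon-activated transcription factors bind, and promoters of some called genes that hold its letters are shown. The letters GAAA, followed by any 2 bases and by GAAA again, were searched on both strands in the 250 bases before each gene's start in RefSeq (GRCm38.p6). They were in 8 of 20 interferon-stimulated genes with a promoter in the table (40.0%), in 1 of 12 antigen presentation genes (8.33%) and in 248 of 8690 tested autosomal genes (2.85%). Of genes called at least 2-fold higher they were in 19 of 355 (5.35%), and of those lower in 6 of 198 (3.03%). In the sequences below, written 5′ to 3′ along the gene's strand, capitals mark the matches on either strand, and overlapping matches run together. They come from chr3:142620413-142620662 (plus strand), chr3:142559794-142560043 (plus strand), chr8:71537473-71537722 (minus strand) and chr2:122147437-122147686 (plus strand), with the nearest match beginning 59, 39, 124 and 139 bases before the start. For Gbp3, 1 of its 2 promoters in the table is shown.
Gbp2: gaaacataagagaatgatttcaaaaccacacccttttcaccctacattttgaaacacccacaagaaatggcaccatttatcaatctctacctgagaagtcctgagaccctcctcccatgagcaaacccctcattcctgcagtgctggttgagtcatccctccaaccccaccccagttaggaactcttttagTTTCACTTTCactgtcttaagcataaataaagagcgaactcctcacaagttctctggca
Gbp3: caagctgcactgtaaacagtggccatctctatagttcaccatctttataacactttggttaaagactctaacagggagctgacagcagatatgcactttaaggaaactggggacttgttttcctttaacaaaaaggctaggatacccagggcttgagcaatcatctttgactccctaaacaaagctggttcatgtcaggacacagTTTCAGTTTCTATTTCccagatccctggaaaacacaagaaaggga
Bst2: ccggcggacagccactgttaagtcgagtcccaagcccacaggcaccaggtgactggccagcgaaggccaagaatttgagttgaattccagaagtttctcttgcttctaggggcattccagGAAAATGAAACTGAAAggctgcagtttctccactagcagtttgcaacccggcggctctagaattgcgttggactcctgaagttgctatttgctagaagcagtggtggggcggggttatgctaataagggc
B2m: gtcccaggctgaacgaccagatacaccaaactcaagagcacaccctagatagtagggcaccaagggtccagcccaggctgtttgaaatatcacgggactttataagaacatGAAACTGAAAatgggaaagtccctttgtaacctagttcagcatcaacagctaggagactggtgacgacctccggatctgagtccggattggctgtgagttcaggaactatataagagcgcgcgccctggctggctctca
Rsad2 and Oas1a, called higher by 1.85 and 1.20, held the letters too and are not shown. Ifit1 and Ifit3, which were not called, also held the letters in this window, as did Ifitm2, a relative of Ifitm3, which was called lower by -0.12 ± 0.04. A match describes the sequence and does not show binding.

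Wnt pathway genes were lower in EpiSC-2: of 25 tested, 17 were called lower and 2 higher (76.0% called, against 55.5% of all tested genes). At least 2-fold lower were 5, and the median was -0.62. Among receptors, Fzd7 gave 967, 884 and 921 in EpiSC-2 and 2782, 2882 and 2732 in EpiSC-1 (-1.60 ± 0.05, adjusted p = 1.6e-12), and Lgr5, a receptor of R-spondins, gave 80.1, 84.0 and 76.1 in EpiSC-2 and 218, 243 and 216 in EpiSC-1 (-1.49 ± 0.18). Both were lower in every EpiSC-2 array. Among secreted inhibitors, Sfrp2 gave 153, 118 and 113 in EpiSC-2 and 615, 553 and 573 in EpiSC-1 (-2.19 ± 0.11), Sfrp1 was lower by -0.95 ± 0.09, and Dkk1 gave 307, 181 and 375 in EpiSC-2 and 534, 572 and 571 in EpiSC-1 (-1.02 ± 0.18). Lef1, a nuclear partner of beta-catenin, gave 401, 358 and 412 in EpiSC-2 and 1359, 1396 and 1404 in EpiSC-1 (-1.83 ± 0.09), and its second probe set was lower by -2.15.

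Targets of the Wnt pathway did not all follow. Sp5, a direct target in the streak, gave 434, 448 and 527 in EpiSC-2 and 95.6, 139 and 101 in EpiSC-1 (2.08 ± 0.15). Ccnd1, the cyclin D1, was lower by -0.70 ± 0.05. Axin2, the usual readout of the pathway, gave 232, 170 and 245 in EpiSC-2 and 335, 308 and 253 in EpiSC-1 (-0.48 ± 0.17, adjusted p = 0.0253), and its call was lost without EpiSC-2 replicate 2 (-0.32) and without EpiSC-1 replicate 1 or 2. Ctnnb1, beta-catenin itself, differed by 0.04 and was not called.

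The other pathways that sustain EpiSCs moved in both directions. Of 24 FGF and ERK genes, 5 were called higher and 9 lower (58.3% called, near the 55.5% of all tested genes), with a median of 0.00. The ligand Fgf15 gave 116, 107 and 128 in EpiSC-2 and 465, 433 and 413 in EpiSC-1 (-1.91 ± 0.13), and Spry1, a feedback inhibitor, was lower by -0.96 ± 0.08. Fos, an immediate early factor, gave 1865, 2003 and 1996 in EpiSC-2 and 529, 601 and 715 in EpiSC-1 (1.68 ± 0.10), and Dusp5, a phosphatase that removes ERK activation, was higher by 1.64 ± 0.15, while Dusp6 differed by -0.03 without a call. Of 21 Nodal and Activin genes, 5 were called higher and 7 lower (57.1% called, also near that share), with a median of -0.01. The receptor Acvr2b gave 606, 531 and 640 in EpiSC-2 and 1352, 1276 and 1333 in EpiSC-1 (-1.16 ± 0.11), and Foxh1, a partner of Smad proteins, was lower by -0.82 ± 0.08. Of 20 BMP genes, 7 were called higher and 6 lower (65.0% called), with a median of 0.00. Id2, an inhibitor of bHLH factors and BMP target, gave 1902, 2021 and 1609 in EpiSC-2 and 425, 500 and 429 in EpiSC-1 (2.03 ± 0.09). Id1 was higher by 0.57, Id3 was lower by -0.18 and Bmp5, a ligand, was lower by -1.42, with all its EpiSC-2 and EpiSC-1 arrays under the filter.

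Enzymes of cholesterol synthesis were lower together. Of 21 tested genes of synthesis and uptake, 15 were called lower and 2 higher (81.0% called, against 55.5% of all tested genes). The median was -0.58, with 4 at least 2-fold lower. Dhcr7, which makes cholesterol from 7-dehydrocholesterol, gave 1330, 1101 and 1431 in EpiSC-2 and 3828, 3268 and 3973 in EpiSC-1 (-1.52 ± 0.10). Lss, the lanosterol synthase, gave 1351, 1180 and 1312 in EpiSC-2 and 2685, 2570 and 2763 in EpiSC-1 (-1.06 ± 0.06). Other probe sets of Lss differed by -1.48 and, without a call, by 0.22. Cyp51, the lanosterol demethylase, gave 2544, 2576 and 2289 in EpiSC-2 and 4671, 4755 and 4741 in EpiSC-1 (-0.94 ± 0.05), and its other probe sets were lower by -0.94 and -1.39. In each gene every EpiSC-2 array was lower. Stard4, a sterol carrier, was lower by -1.26 ± 0.07, and Msmo1, a sterol oxidase, by -0.75 ± 0.04. The early enzyme Hmgcs1 was lower by -0.15 ± 0.04, but 3 of its 4 other probe sets above the filter were also called lower. These 4 ranged from -1.04 to -0.04. Idi1 differed by -0.09 without a call, while another of its probe sets was called higher by 0.31. The regulators Srebf2 and Scap were not called.

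**Figure D4:**
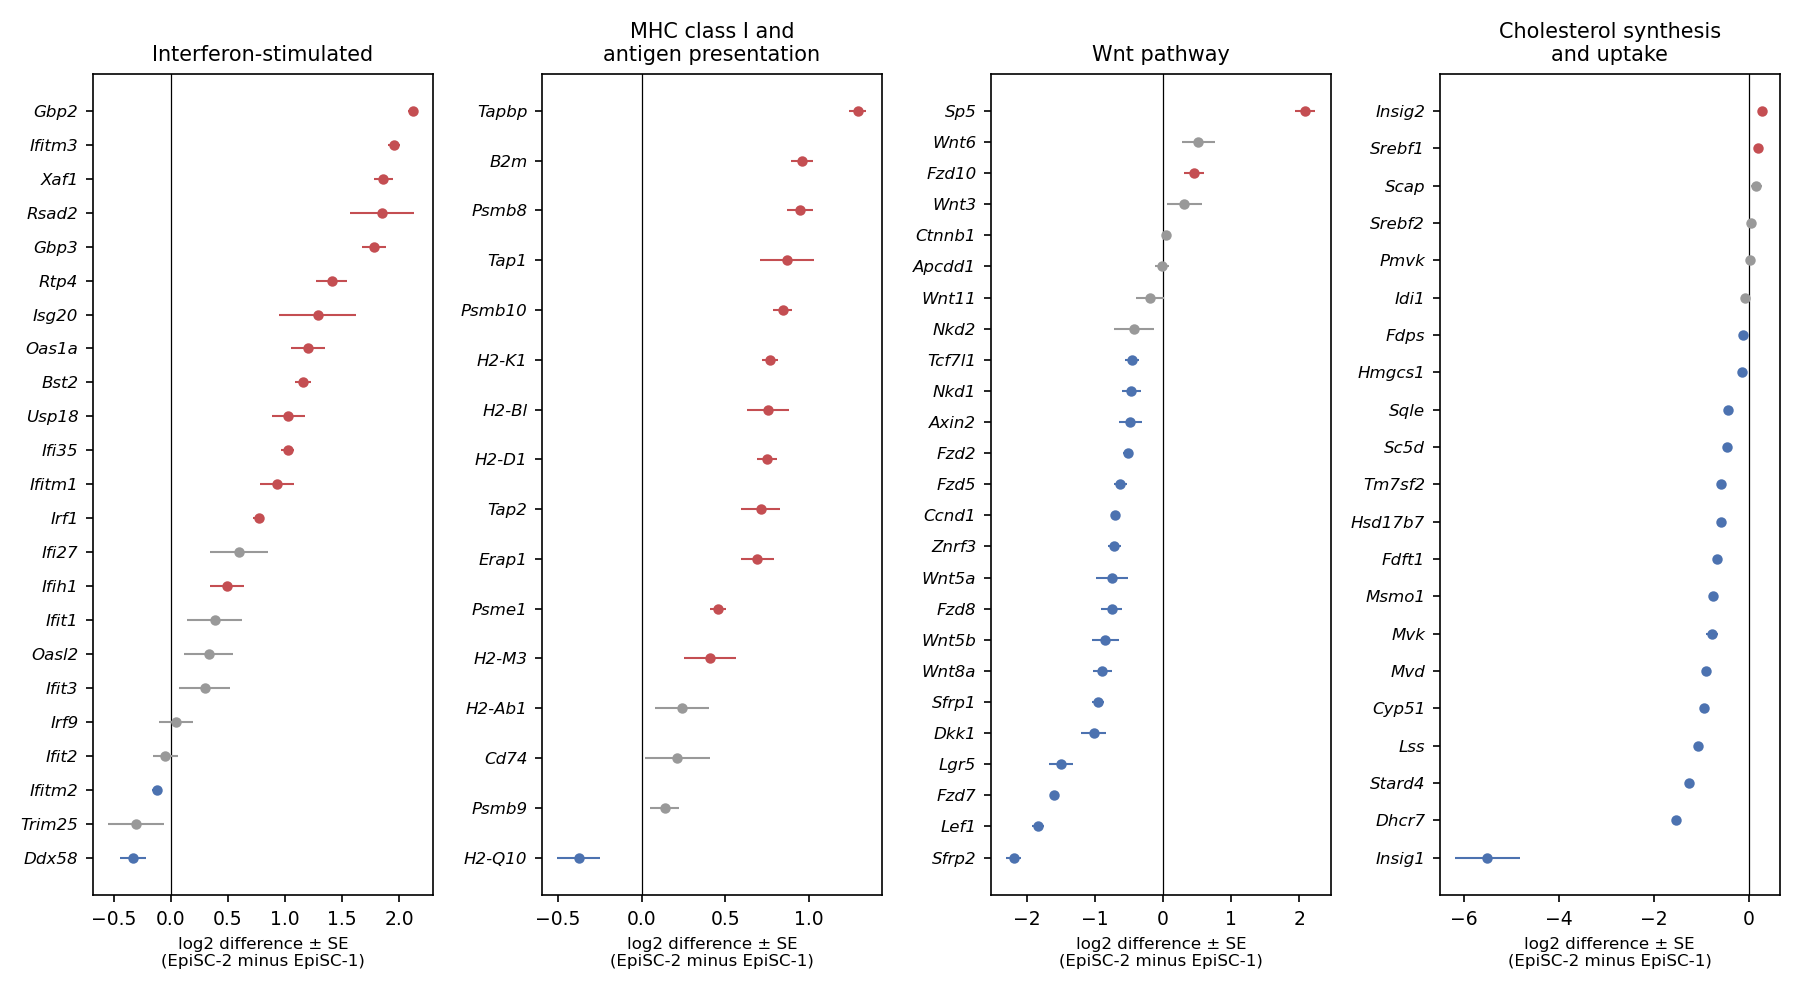
Log2 difference with its SE (diploid EpiSC-2 minus diploid EpiSC-1) of each tested autosomal member of 4 lists; red is called higher, blue called lower, grey not called. Members of the interferon and antigen presentation lists lie mostly right of 0 up to 2.12 for Gbp2, and members of the Wnt and cholesterol lists mostly left of 0, with Sp5 at 2.08 as the largest exception.

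Glutathione and xenobiotic enzymes moved in both directions. Of 28 tested, 10 were called higher and 12 lower (78.6% called, against 55.5% of all tested genes), with a median of 0.01. Gclc, the catalytic subunit that starts glutathione synthesis, gave 738, 825 and 849 in EpiSC-2 and 2021, 2149 and 2198 in EpiSC-1 (-1.40 ± 0.06), and its partner Gclm was lower by -0.70. The transferases Gstm4, Gstm1, Gstt1 and Gstt2 were lower by -1.71, -1.07, -1.51 and -1.24. By contrast, the transferase Gstp1 gave 6108, 6923 and 6433 in EpiSC-2 and 2369, 2105 and 2222 in EpiSC-1 (1.54 ± 0.05), and Hmox1, the haem oxygenase, was higher by 1.41 ± 0.09. Gstm genes are close copies, so their single values are uncertain.

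Targets of p53 were more often higher: of 28 tested, 16 were called higher and 1 lower (60.7% called), with a median of 0.27. Of all tested autosomal genes, 26.1% were called higher and 29.4% lower (55.5% called). Cdkn1a, the cell cycle inhibitor p21, gave 3885, 3668 and 3931 in EpiSC-2 and 1429, 1282 and 1335 in EpiSC-1 (1.51 ± 0.06). Perp, a membrane protein of desmosomes and apoptosis, gave 4808, 4875 and 4938 in EpiSC-2 and 1825, 1727 and 1875 in EpiSC-1 (1.43 ± 0.06), and Gadd45a, a stress protein, was higher by 1.28 ± 0.06. Mdm2, the ligase that degrades p53, was higher by 0.85 ± 0.07. These genes did not overlap between the lines, while the apoptosis targets Pmaip1 and Bbc3 were not called. Plk2, a polo-like kinase, was higher by 1.07, but its call was lost with the mean of its probe sets (0.60).

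Genes of G1/S and DNA replication were mostly lower by small amounts. Of 28 tested, 18 were called lower and 1 higher (67.9% called), with a median of -0.29, and only E2f1 was at least 2-fold lower. E2f1, a factor that drives S-phase entry, gave 243, 208 and 239 in EpiSC-2 and 549, 487 and 471 in EpiSC-1 (-1.13 ± 0.09), but its call was lost with the mean of its probe sets (-0.38). Cdc6, which loads the replicative helicase, gave 1512, 1559 and 1604 in EpiSC-2 and 2602, 2659 and 2657 in EpiSC-1 (-0.76 ± 0.05), and Mcm2, a helicase subunit, was lower by -0.51 ± 0.06. Of 29 genes of G2/M and mitosis, 7 were called higher and 10 lower (58.6% called, near the 55.5% of all tested genes), with a median of -0.07. Of 25 DNA damage response genes, 1 was called higher and 14 lower (60.0% called), with a median of -0.20. Those lower included Brca1, a repair factor, at -0.54 ± 0.07. No gene of these last 2 lists passed 2-fold.

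Genes of energy metabolism were called in both directions. Of 30 oxidative phosphorylation genes, 15 were called higher and 4 lower (63.3% called, against 55.5% of all tested genes). Their median of 0.10 was -0.05 under quantile normalization, and the largest difference was 0.41 for Ndufa4. Of 29 glycolysis and hypoxia genes, 12 were called higher and 7 lower (65.5% called), with a median of 0.09. Slc2a1, the glucose transporter GLUT1, gave 21194, 19434 and 20145 in EpiSC-2 and 9743, 10139 and 10442 in EpiSC-1 (1.0 ± 0.05), while Pfkl, a phosphofructokinase, gave 856, 757 and 823 in EpiSC-2 and 1965, 1809 and 1862 in EpiSC-1 (-1.21 ± 0.08).

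Among imprinted genes, 13 of 22 tested paternally expressed genes were called higher and 5 lower, with a median of 0.47. This was 81.8% called, against 55.5% of all tested genes. Of 20 maternally expressed genes, 5 were called higher and 8 lower (65.0% called), with a median of -0.03. The difference between these lists was not tested. Gab1, a signalling adaptor, gave 2890, 2779 and 2887 in EpiSC-2 and 669, 560 and 735 in EpiSC-1 (2.13 ± 0.09), and Sfmbt2, a Polycomb-related gene, gave 800, 789 and 859 in EpiSC-2 and 279, 318 and 265 in EpiSC-1 (1.51 ± 0.07). Both are known as imprinted in the mouse placenta. Plagl1, a zinc finger factor, was higher by 0.76 ± 0.05, and Igf2, the insulin-like growth factor, by 0.87 ± 0.09. Snrpn, a splicing protein, was lower by -1.58 ± 0.37 from signals of 19.8, 67.1 and 55.7 in EpiSC-2 and 122, 168 and 96.2 in EpiSC-1. Phlda2, which restrains placental growth, was lower by -0.93 ± 0.07. The increases of Peg3 and Impact turned to -0.76 and -0.07 without a call when the mean of their probe sets was taken.

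Of 23 genes of DNA methylation and heterochromatin, 5 were called higher and 14 lower, with a median of -0.23. This was 82.6% called, against 55.5% of all tested genes. Besides the de novo methyltransferases, Setdb1, a histone H3 lysine methyltransferase, gave 887, 979 and 907 in EpiSC-2 and 1740, 1586 and 1766 in EpiSC-1 (-0.88 ± 0.06). Mbd2, a reader of methylated DNA, moved the other way, with 492, 503 and 631 in EpiSC-2 and 127, 175 and 138 in EpiSC-1 (1.89 ± 0.13). Of 26 Polycomb and Trithorax genes, 4 were called higher and 10 lower (53.8% called, near the 55.5% of all tested genes). Their median was -0.14, with none past 2-fold. Asxl1, a partner of the BAP1 deubiquitinase, was lower by -0.98 ± 0.06, and Bmi1, a Polycomb ring finger protein, was higher by 0.85 ± 0.15.

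Other lists gave few calls, with shares under the 55.5% of all tested genes. Of 10 tested Hox genes, Hoxa11 alone was called, lower by -1.42 from signals under the filter. Of 17 KRAB and other zinc finger repressors, 3 were called higher and 3 lower. Their median of -0.15 turned to 0.029 with no signal filter and to 0.10 with a filter at the 75th percentile. Zfp934 gave 683, 788 and 855 in EpiSC-2 and 226, 221 and 214 in EpiSC-1 (1.81 ± 0.10), but another of its probe sets differed by -0.03 and the mean of both by 0.89. Zfp932 was lower by -1.03 ± 0.09. Both belong to a family of close copies, so the gene read is uncertain. Of 12 tested loci with known strain alleles, 1 was called higher and 3 lower and none passed 2-fold, the largest being Ide, the insulin-degrading enzyme, at -0.66 ± 0.05. Of 3 tested germline and two-cell-like genes, only Sycp3, a synaptonemal complex protein, was called (-0.63, adjusted p = 0.0384), and leaving out any array but EpiSC-2 replicate 2 ended that call.

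The differences were spread over all autosomes. Median differences by chromosome lay between -0.12 and 0.06. On chromosome 11, 172 of 917 tested genes were called higher and 380 lower, with a median of -0.12, which was -0.10 relative to all tested autosomal genes. On chromosome 19, 78 of 386 were called higher and 142 lower, with a median of -0.11. The centred medians of both chromosomes did not overlap between the 3 arrays of each line, as was so for 13 of 19 autosomes, and the exact two-sided permutation p was then 0.1, the smallest that 3 against 3 arrays allow. Genes on chromosome 11 still moved both ways, with Car4 lower by -3.69 and Dusp14, a dual-specificity phosphatase, and Cavin1, a coat protein of caveolae, higher by 2.43 and 1.91.

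**Figure D5:**
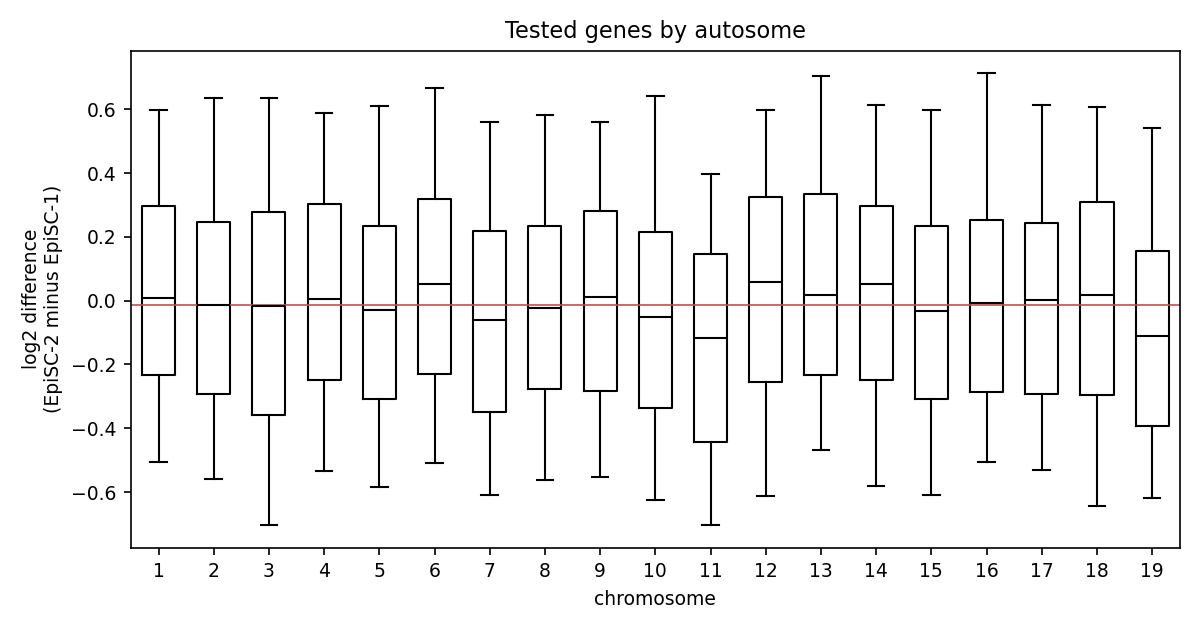
Log2 difference (diploid EpiSC-2 minus diploid EpiSC-1) of the tested genes of each autosome; boxes span the quartiles with the median as a line, whiskers the 10th to 90th percentile, and the red line is the median of all tested autosomal genes. Chromosomes 11 and 19 have the lowest medians, -0.12 and -0.11, within boxes that span 0.

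Some genes called at least 2-fold lay next to each other. Among tested genes in chromosome order in RefSeq, 90 of the 710 genes (12.7%) lay in 42 runs of neighbours that moved the same way, and 5 runs held 3 or more genes. Of all tested genes, 4.33% were called at least 2-fold higher and 2.31% lower, and such shares give some runs in any order. How many was not worked out, so the count does not show that these genes cluster. On chromosome 3 the carbonic anhydrases Car13, Car3 and Car2 were higher by 1.12, 1.34 and 1.63. Also on chromosome 3, S100a4 and S100a6 were higher by 3.15 and 3.27, and Crct1, Tchh, S100a10 and Them4 by 2.21, 1.96, 1.84 and 1.06. These hold genes of the epidermal differentiation region and its calcium-binding proteins. S100a4, a fibroblast marker, gave 237, 185 and 182 in EpiSC-2 and 24.7, 31.1 and 14.8 in EpiSC-1. Other pairs were Krt8 and Krt18, Cldn4 and Cldn3, Col4a1 and Col4a2, and the cell cycle inhibitors Cdkn2a and Cdkn2b, which were higher by 2.47 and 1.08. Lower pairs were Gstm1 with Gstm4, Gstt1 with Gstt2, and Evc with Evc2, ciliary proteins of Hedgehog signalling, at -2.13 and -1.60. Neighbouring family members can share probe sequence, and the part of this in the runs was not tested.

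The size of the autosomal difference between the diploid lines can be set beside that between the haploid lines, which share no array with it. Between haploid EpiSC-2 and haploid EpiSC-1, 6023 of 10693 autosomal genes (56.3%) were called and 721 (6.74%) were called at least 2-fold, with a median size of 0.29 against 0.28 between the diploid lines. Of these, 209 (1.95%) were higher and 512 (4.79%) lower in haploid EpiSC-2. The genes called at least 2-fold in both comparisons numbered 142, which was 20% of the diploid and 19.7% of the haploid genes. The line numbers do not pair the lines of the 2 ploidies, so directions were not compared, and the difference between the comparisons was not tested.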

How the data were processed

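Gene expression was measured on 12 Affymetrix arrays, and the 6 diploid arrays were compared. The authors deposited 1 linear signal intensity for each probe set and array, made with MAS5 per the submitters' processing notes. Its version was not given in the sources used here. Precision is limited by having 3 arrays a line, and detection calls were not used. Of 45101 probe sets, 64 controls, 932 with several symbols and 9160 with none were left out. Chromosomes came from RefSeq (GRCm38.p6) by Entrez ID. Each gene was read from its brightest probe set by mean log2 signal, and genes with a mean log2 signal of at least 5.97 (62.6 as a signal) over all 12 arrays were tested. Genes with 1 line under this level have no firm fold. Group means were fitted to log2 signals of 11105 genes with limma 3.58.1 (R 4.3.3), with an intensity trend, and p-values were adjusted over all of them (Benjamini-Hochberg, threshold 0.05). SEs came from the 12-array fit, and group means are geometric.

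Named genes were drawn from called genes with arrays that do not overlap. They were the 12 highest and 12 lowest, the 8 highest and 8 lowest measured in both lines, and on and off genes. Up to 4 genes of each of 32 lists and 3 on each shifted chromosome followed, by lowest p. For these genes non-overlap of the arrays was fixed by the choice, and 61.2% of all tested autosomal genes met it. Fixed marker genes were added whatever their values. Other genes named were chosen after their values were seen. The members and lists were chosen with earlier results of these data known. In simulated data on 11105 genes for this comparison, 100 genes were given log2 changes of 0.5 and 100 changes of 1. Of these, 62% and 92% were recovered, and 4 of 158 calls were unchanged genes. Far fewer genes were changed than the 55.5% called here, so these rates need not hold for the real comparison. Alternatives changed the normalization, pseudocount, filter, probe set rule, intensity trend, arrays fitted and on level, or left out 1 array at a time.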

Additional observations from a re-analysis of the deposited data

Results flagged for a closer look

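Outside the gene comparison, 10092 probe sets had several gene symbols or none in the platform annotation. Among them, 4 probe sets, none with a symbol, were off in all 3 diploid EpiSC-2 arrays and on in all 3 diploid EpiSC-1 arrays, by the same levels as for genes. The brightest gave signals of 18.5, 5.17 and 3.77 in EpiSC-2 and 3907, 4110 and 3938 in EpiSC-1. The others reached at most 40.4 in any EpiSC-2 array and were at least 364 in every EpiSC-1 array. They are unnamed and have no chromosome here, and whether they read the transcripts of named genes was not tested. The Y-linked Eif2s3y was likewise bright in EpiSC-1 and under the filter in EpiSC-2. Whether these probe sets read genes of the Y chromosome was not tested.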

How the results depend on the processing

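Calls numbered 5347 to 5536 with any 1 array left out, 5939 with the replicate block and 5933 without it. Replicate numbers are only numbers here: deviations of same-numbered arrays correlated at 0.01, 0.06 and 0.02. The share of calls that were higher was 47.0%, 52.0% under quantile normalization and 40.3% with the mean of all probe sets of a gene, which called 1797 genes higher and moved the median of all genes to -0.08. The filter at the 75th percentile, which keeps fewer genes, left 207 genes at least 2-fold higher, 87 lower, 61 list members and 217 haploid genes, against 1097 haploid genes with no filter. Autosomes shifted by over 0.1 numbered 1, but 2 under quantile normalization, the 75th percentile and the mean of probe sets, 0 with 32 added or the filter from the diploid arrays, and 1 to 2 with an array left out. With on at 2 times the filter, 24 genes were on in EpiSC-2 and 9 in EpiSC-1. At 8 times these were 2 and 1, and with the mean of probe sets 1 was on in EpiSC-1.

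Of 3430 values of 220 named genes under the alternatives, 3373 kept their call, and 6 turned in sign with a call before or after. Eomes, Egr1 and Idi1, not called, also changed sign under some settings without gaining a call there. Epcam reversed under quantile normalization (-0.054, adjusted p = 0.253), and with the mean of probe sets Impact (-0.071, 0.876), Kif23 (-0.16, 0.259), Zfp568 (-0.28, 0.00322), Cap1 (-0.012, 0.849) and Peg3 (-0.76, 0.0874) did, by limma. List medians reversed for oxidative phosphorylation under quantile normalization (-0.054), for KRAB repressors with no filter (0.029) and the 75th percentile (0.10), and for neuroectoderm with the mean of probe sets (-0.039). The cause of these changes was not tested.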
